A study of Mus musculus with 8 samples.

Results

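The Hox cluster genes were taken as every row of the array table whose symbol reads Hox, a cluster letter from a to d and a number. They were 39 of the table's 18120 gene symbols, measured by 51 of its 25697 probes. Hox genes encode homeodomain transcription factors. They lie side by side in clusters named A to D, and genes in the same position of different clusters, called paralogues, share a number. Their order along a cluster follows the order of their expression from head to tail in the embryo, so that low numbers belong to the hindbrain and neck and high numbers to the lumbar, sacral and tail levels. In the kidney the paralogues numbered 9 to 11 are known for their part in the formation of the organ. The paralogues numbered 11 act in the metanephric mesenchyme, upstream of the growth factor gene Gdnf, and those numbered 10 act in the stroma.

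Glomeruli, the capillary tufts that filter the blood, were obtained from 4 male Cd151+/+ and 4 male Cd151-/- FVB/N mice of 3 weeks of age, and the RNA of each mouse was read on 1 array. Cd151-/- mice lack the tetraspanin CD151 in every cell of the body, a membrane partner of laminin-binding integrins in the podocyte, and the comparison of genotypes asks which transcripts differ early in their glomerular disease. The arrays were Illumina MouseRef-8 BeadChips, which give 1 brightness per probe, and the levels below are log2 signals after background correction and quantile normalisation. A detection p-value gives the share of an array's negative-control probes at least as bright as a probe, and a gene was called detected on an array where any of its probes had a value of 0.05 or lower.

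The labels were checked first. All 3 Cd151 probes were detected on the 4 Cd151+/+ arrays and on none of the 4 Cd151-/- arrays. The podocyte genes Podxl, Ptpro and Wt1 and 6 of 7 endothelial markers were detected on all 8 arrays. Tubular RNA was present as well, since 5 of the 6 proximal tubule markers on the array were detected on all 8 arrays. In such a mixture of cells, fewer cells of a type and less RNA per cell cannot be told apart.

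The arrays fell into sets by their background. The inferred background was 123 on mouse 3 and 129 on mouse 4 of the Cd151+/+ group and 135 on mouse 1 and 129 on mouse 2 of the Cd151-/- group. It was between 59.0 and 69.5 on the other 4 arrays, Cd151+/+ mice 1 and 2 and Cd151-/- mice 3 and 4. Each set thus held 2 mice of each genotype, and both the genotype and the set were compared. The median detected probe was 3.00 to 4.46 times as bright as the background, and 11291 to 12359 probes were detected on an array.

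To find which paralogues are present in glomeruli, detection was counted over the 8 arrays. Of the 39 Hox genes, 27 (69.2%) were detected on at least 1 array, beside 62% of all symbols. Detection on all 8 arrays was seen for 14 Hox genes (35.9%), beside 41.1% of all symbols, and detection on none for 12 (30.8%), beside 38%. Single arrays detected 17 to 22 Hox genes. The Cd151+/+ arrays detected 19, 22, 22 and 19 of them and the Cd151-/- arrays 21, 20, 22 and 17.

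**Figure D1:**
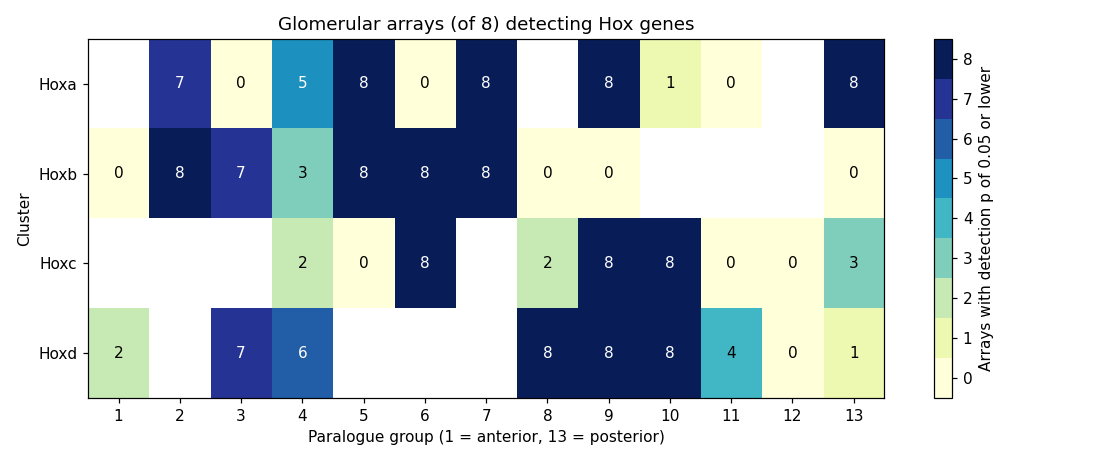
Number of the 8 glomerular arrays that detected a Hox gene, with the cluster in rows and the paralogue number in columns; white squares have no Hox gene of that name or are not shown. The 14 genes detected on all 8 arrays lie mostly between numbers 5 and 10.

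The genes detected on all 8 arrays lay mostly in the middle of the clusters. Of the paralogues numbered 5 to 8, which pattern the thorax, 7 of 11 (63.6%) were detected on every array, namely Hoxa5, Hoxb5, Hoxb6, Hoxc6, Hoxa7, Hoxb7 and Hoxd8. Of those numbered 9 and 10, which pattern the lower trunk and the lumbar level, 5 of 7 (71.4%) were, namely Hoxa9, Hoxc9, Hoxd9, Hoxc10 and Hoxd10. Towards the ends of the clusters this held for 1 of the 12 genes numbered 1 to 4 (8.33%), Hoxb2, and for 1 of the 9 genes numbered 11 to 13 (11.1%), Hoxa13. These counts describe the probes on this array and were not tested, because probes differ in how well they bind their transcripts.

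By cluster, 4 of 11 Hoxa, 4 of 10 Hoxb, 3 of 9 Hoxc and 3 of 9 Hoxd genes were detected on all 8 arrays. Among the 13 genes detected on some arrays, Hoxa2, a gene of the branchial arch skeleton, Hoxb3 and Hoxd3 were detected on 7, Hoxd4 on 6 and Hoxa4 on 5. Hoxd11 was detected on 4, and it was the only paralogue numbered 11 to be detected. Hoxb4 and Hoxc13 were detected on 3, Hoxc4, Hoxc8 and Hoxd1 on 2, and Hoxa10 and Hoxd13 on 1. The 12 genes detected on none included Hoxa3, Hoxa6, Hoxa11, Hoxb1, Hoxb8, Hoxb9, Hoxb13, Hoxc5, Hoxc11, Hoxc12 and Hoxd12.

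Neighbours in a cluster could differ. Hoxa6 was detected on none of the arrays although Hoxa5 and Hoxa7 on its sides were detected on all 8, and Hoxb8 and Hoxb9 were detected on none beside Hoxb7. In the Hoxd cluster the run from Hoxd8 to Hoxd10 was detected on every array, Hoxd11 on 4 and Hoxd12 on none.

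A gene detected on no array had no probe above background, and its transcript may be one that the probe reads poorly. The 30 Hox genes with 1 probe rest on that probe alone. Of the 9 with several probes, 4 had 1 probe detected and another detected on none. For Hoxa9, known from blood progenitors, 2 probes were detected on all 8 arrays and the third on none. For Hoxa13, a gene of the digits and the genital tubercle, the 3 probes were detected on 8, 5 and 0 arrays, so that its detection turned on the probe.

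The sequence before the start of transcription was available for 22 of the 39 genes, as 24 windows from RefSeq on the mouse build GRCm38.p6, of which 250 bases upstream were searched. The last 120 bases before the start are given for 6 genes that the results return to, with CG dinucleotides in capitals. Hoxa5, Hoxa6 and Hoxa7 are the run in which the middle gene was not detected, and Hoxd4, Hoxd8 and Hoxd9 are neighbours whose values on the arrays did or did not follow the array background.
Hoxa5, chr6:52204588-52204707, minus strand: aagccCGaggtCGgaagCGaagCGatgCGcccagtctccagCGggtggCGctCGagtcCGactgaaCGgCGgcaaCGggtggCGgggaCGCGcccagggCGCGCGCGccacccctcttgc
Hoxa6, chr6:52208673-52208792, minus strand: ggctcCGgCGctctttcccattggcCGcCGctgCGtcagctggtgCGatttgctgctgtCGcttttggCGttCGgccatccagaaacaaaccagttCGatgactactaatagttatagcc
Hoxa7, chr6:52218574-52218693, minus strand: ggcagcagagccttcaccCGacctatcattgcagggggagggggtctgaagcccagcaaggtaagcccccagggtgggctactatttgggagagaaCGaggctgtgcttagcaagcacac
Hoxd4, chr2:74721858-74721977, plus strand: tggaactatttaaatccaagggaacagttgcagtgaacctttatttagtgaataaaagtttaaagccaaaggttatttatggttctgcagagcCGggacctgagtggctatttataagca
Hoxd8, chr2:74704495-74704614, plus strand: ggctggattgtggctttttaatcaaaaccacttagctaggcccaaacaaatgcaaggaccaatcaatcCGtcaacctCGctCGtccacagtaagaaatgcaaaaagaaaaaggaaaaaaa
Hoxd9, chr2:74697643-74697762, plus strand: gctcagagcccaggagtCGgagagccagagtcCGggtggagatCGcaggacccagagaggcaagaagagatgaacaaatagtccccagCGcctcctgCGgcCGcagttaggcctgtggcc
Over the whole 250 bases Hoxa5 held 28 CG dinucleotides, the undetected Hoxa6 24 and the detected Hoxa7 7. Hoxd4 held 3, Hoxd8 6 and Hoxd9 13. The median was 12.5 over the Hox windows and 6 over the 32851 windows of all genes. It was 13 in the 7 windows of genes detected on all 8 arrays and 12.5 in the 6 windows of genes detected on none, so CG number did not separate them.

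Short motifs were searched on both strands of the same windows. The letters TATAAA of a TATA box were found in 4 of the 24 Hox windows (16.7%) and 12.4% of all windows. The letters TGATNNAT, which a Hox protein binds together with a Pbx cofactor, were found in 4 of 24 (16.7%) and 7.68%. The letters AGGTCA, to which nuclear receptors such as the retinoic acid receptors bind, were found in 6 of 24 (25%) and 14%. Hoxd4, Hoxd8 and Hoxd10 were among these Hox genes. The Hox shares rest on few windows, and their difference from all windows was not tested. These matches are descriptions of the sequence and not binding sites.

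The genotypes were then compared over the 27 Hox genes with a detected probe, each by its brightest probe, in a limma fit of all 14967 probes detected on at least 1 array. None of the 27 passed Benjamini-Hochberg adjustment, beside 0.0334% of all probes. Before adjustment, 1 Hox gene was lower in Cd151-/- glomeruli at a p-value under 0.05, Hoxb5, and 0 were higher, beside 2.61% of all probes lower and 1.69% higher. The values of the 4 mice did not overlap for 1 gene, Hoxb2, which was lower, and for 0 higher genes, beside 1.46% and 0.855% of all probes. The median difference of the 27 genes was -0.07 on the log2 scale, and that of all tested probes was -0.01. SAM with an FDR below 0.2 called 91 probes and 0 of the Hox probes.

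In the Hoxb cluster, Hoxb5, a gene of the vagal neural crest, measured 10.41, 10.35, 10.14 and 9.67 in Cd151+/+ mice 1 to 4 and 9.10, 9.71, 9.59 and 9.38 in Cd151-/- mice 1 to 4. The mutant mice lay below the controls except that mutant mouse 2 just exceeded control mouse 4. The mean was 0.70 lower in Cd151-/- glomeruli (SE 0.24, 95% interval -1.23 to -0.17), a 1.62-fold difference. The unadjusted limma p-value was 0.0144, the Benjamini-Hochberg adjusted p-value was 0.918, and the exact two-sided permutation p-value over mice was 0.0571. The difference was -0.90 within the arrays of lower background and -0.50 within those of higher background.

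Markers of the cell types in the isolate were set beside these values. The summed normalised linear signal of the proximal tubule markers was 21121, 29075, 46479 and 62102 in the Cd151+/+ mice and 71018, 44350, 42347 and 76761 in the Cd151-/- mice. That list had 6 of 7 genes on the array, all of them tested, with a median difference of 0.60 and Slc34a1, a phosphate transporter gene, as its brightest gene, and 0 of the 6 reached an unadjusted limma p-value of 0.05. The podocyte markers summed to between 56783 and 61103 in the controls and to 46635, 49228, 62014 and 47905 in the mutants, and the endothelial markers to between 30743 and 40879 in the controls and to 22805, 30525, 40956 and 20959 in the mutants. In both sums mutant mouse 3 lay above the controls and the other mutants below them, and 0 of 4 podocyte and 0 of 7 endothelial markers tested reached an unadjusted limma p-value of 0.05. Of the 4 erythroid markers Hba-a1, the brightest, and Alas2 were lower before adjustment (log2 differences -0.69 and -2.57, unadjusted limma p-values 0.0276 and 0.00519). Of the mesangial and smooth muscle markers Pdgfrb was lower and Acta2 higher (-0.74 and 0.71, unadjusted limma p-values 0.0399 and 0.0185). The part of these cells in the Hoxb5 value was not tested.

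Hoxb6 measured 8.88, 8.29, 7.97 and 8.33 in the controls and 7.45, 7.87, 8.27 and 7.92 in the mutants. Its groups overlapped, with a mean difference of -0.49 (SE 0.26, unadjusted limma p-value 0.0873) that was the same within either set of arrays. With the array set as a block in the limma fit, Hoxb6 had an unadjusted p-value of 0.0353 and an adjusted one of 0.423. Hoxb2, a hindbrain gene, measured 8.86, 8.77, 8.74 and 8.65 in the controls and 8.64, 8.52, 8.25 and 8.60 in the mutants. All 4 mutants were below all 4 controls, by a narrow margin. The difference was -0.25 (SE 0.19, interval -0.68 to 0.17), with an unadjusted limma p-value of 0.217 and an exact permutation p-value of 0.0286, the smallest that 8 mice allow. Hoxb7, whose promoter is widely used to mark the ureteric bud and collecting duct, measured 10.46, 10.58, 10.15 and 10.49 in the controls and 10.48, 10.58, 10.20 and 10.65 in the mutants. The groups overlapped almost fully, and the difference of 0.06 had an interval of -0.40 to 0.51.

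**Figure D2:**
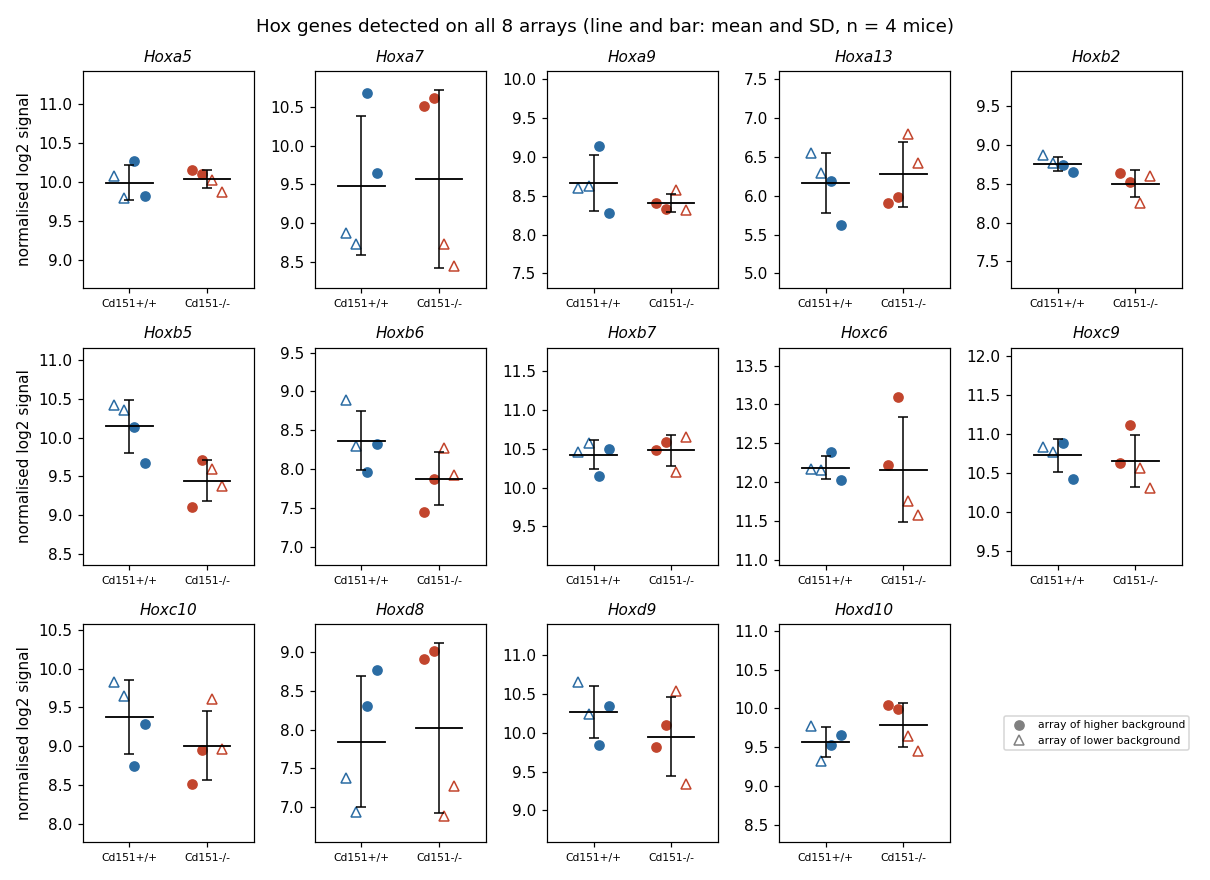
Normalised log2 signal of the 14 Hox genes detected on all 8 arrays, 1 point per mouse, with circles for arrays of higher and triangles for arrays of lower background and the mean and SD of 4 mice as line and bar; each panel spans the same range. Hoxb5 has most Cd151-/- mice below the Cd151+/+ mice, and in Hoxa7 and Hoxd8 circles and triangles separate within each genotype.

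In the Hoxa cluster, Hoxa5, a gene of lung and thoracic development, measured 10.08, 9.80, 10.27 and 9.83 in the controls and 10.15, 10.10, 10.03 and 9.88 in the mutants. The mice of both genotypes lay in the same narrow range, and the difference of 0.05 had an interval of -0.40 to 0.49. Hoxa7 measured 8.87, 8.73, 10.68 and 9.65 in the controls and 10.51, 10.61, 8.73 and 8.45 in the mutants. Each genotype held high and low mice, and the difference was 0.09 with an interval of -1.16 to 1.34. Hoxa9 measured 8.60, 8.63, 9.15 and 8.27 in the controls and 8.41, 8.33, 8.58 and 8.32 in the mutants, an overlap with a difference of -0.25 (SE 0.23). Hoxa13 measured 6.55, 6.29, 6.18 and 5.62 in the controls and 5.90, 5.98, 6.79 and 6.43 in the mutants. Its groups also overlapped, with a difference of 0.11 (SE 0.28), and its other detected probe had the opposite sign, at -0.09.

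In the Hoxc cluster, Hoxc6 measured 12.16, 12.16, 12.38 and 12.03 in the controls and 12.22, 13.09, 11.76 and 11.57 in the mutants. The mutants spread on both sides of the closely grouped controls, and the difference was -0.02 (SE 0.31). Hoxc9, a gene of thoracic motor neurons, measured 10.83, 10.77, 10.89 and 10.42 in the controls and 10.63, 11.12, 10.57 and 10.31 in the mutants, with overlap and a difference of -0.07 (SE 0.23). Hoxc10, a gene of the lumbar level, measured 9.82, 9.65, 8.75 and 9.29 in the controls and 8.51, 8.95, 9.60 and 8.97 in the mutants. The groups overlapped, with a difference of -0.37 (SE 0.30) for this probe and -0.50 for the other probe of the gene (unadjusted limma p-value 0.0945).

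In the Hoxd cluster, Hoxd8 measured 7.37, 6.93, 8.31 and 8.76 in the controls and 8.91, 9.02, 6.89 and 7.27 in the mutants. As for Hoxa7, both genotypes held high and low mice, and the difference of 0.18 had an interval of -1.02 to 1.37. Hoxd9 measured 10.65, 10.25, 9.84 and 10.34 in the controls and 9.82, 10.10, 10.54 and 9.34 in the mutants, an overlap with a difference of -0.32 (SE 0.29). Hoxd10, which patterns lumbar motor neurons, measured 9.77, 9.32, 9.53 and 9.66 in the controls and 10.05, 9.99, 9.64 and 9.45 in the mutants. Its groups overlapped, with a difference of 0.21 (SE 0.22).

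Among the 13 genes detected on some arrays, 10 were detected in both genotypes, and their differences lay between -0.58 for Hoxd3 (unadjusted limma p-value 0.0915) and 0.37 for Hoxd4 (0.601). Hoxa10 and Hoxd13 were detected on 1 Cd151+/+ array and no Cd151-/- array, too dim for a fold. Hoxc4 was detected on 2 of the 4 Cd151-/- arrays and on none of the Cd151+/+ arrays. Its measured means were 4.98 in the controls and 5.46 in the mutants (unadjusted limma p-value 0.0654), with no fold given because most of the arrays did not detect it. Both arrays that detected it, those of mutant mice 1 and 2, were of higher background. No array of lower background detected Hoxc4 in either genotype, so no difference within a set is given. In a limma fit with the array set as a block, the unadjusted p-values of Hoxd3 and Hoxc4 were under 0.05. In that fit this held for 6.08% of all probes lower and 5.21% higher. No Hox gene was detected in every mouse of a genotype and in none of the other.

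**Figure D3:**
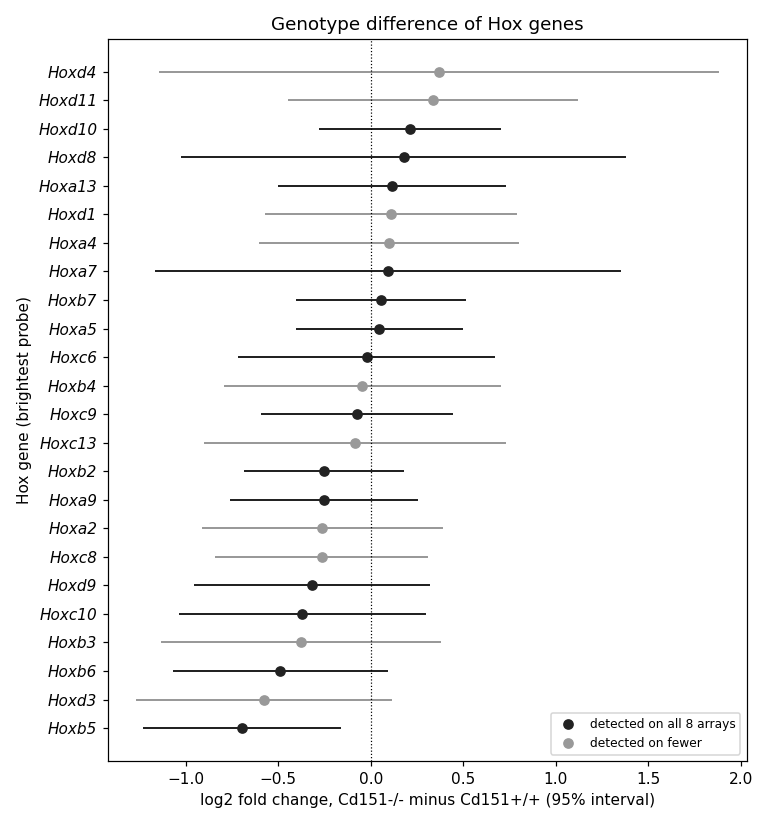
Difference of the mean log2 signal, Cd151-/- minus Cd151+/+, with its 95% interval from limma (4 mice per genotype) for the 24 Hox genes detected in both genotypes, black where all 8 arrays detected the gene. The interval of Hoxb5 (-1.23 to -0.17) is the one that does not reach 0, and those of Hoxa7, Hoxd8 and Hoxd4 are the widest.

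The wide intervals of Hoxa7, Hoxd8 and Hoxd4 went with the array background, which was compared in a limma fit of genotype and set. The comparison was chosen after the values were seen. So were the genes it names that were not detected on every array, Hoxd4, Hoxd3, Hoxb4 and Hoxc8. After Benjamini-Hochberg adjustment 4 of the 27 Hox genes were higher and 2 lower on the arrays of higher background, beside 13.2% of all probes higher and 10.7% lower. The values of the sets did not overlap for 4 higher and 3 lower Hox genes, beside 13.6% and 11.6%. The number of Hox genes that differed was thus near that of the array as a whole.

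The differences of single genes were large. Hoxa7 measured 10.68, 9.65, 10.51 and 10.61 on the arrays of higher background and 8.87, 8.73, 8.73 and 8.45 on the others, with no overlap. It was 1.67 higher (SE 0.24, adjusted limma p-value 0.00266), a 3.18-fold difference. Hoxd8 measured 8.31, 8.76, 8.91 and 9.02 on the arrays of higher background and 7.37, 6.93, 6.89 and 7.27 on the others, again apart, and was 1.63 higher (SE 0.20, adjusted limma p-value 0.00153). Hoxd4 measured 7.35, 6.77, 7.21 and 8.06 on the former and 4.80, 5.61, 5.48 and 5.25 on the latter, where 2 of the 4 arrays detected it. The sets did not overlap, and the gene was 2.06 higher (SE 0.26, adjusted limma p-value 0.00173).

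Scaling the arrays to the same 75th percentile moved the median difference between the sets over all probes from -0.04 to -0.40, and under it Hoxa7 was 1.62, Hoxd8 1.62 and Hoxd4 1.50 higher. Without background correction the differences were 1.50 for Hoxa7, 1.22 for Hoxd8 and 1.06 for Hoxd4, and with cubic spline normalisation that of Hoxd4 was 1.06 as well, so that its size depended on the processing.

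**Figure D4:**
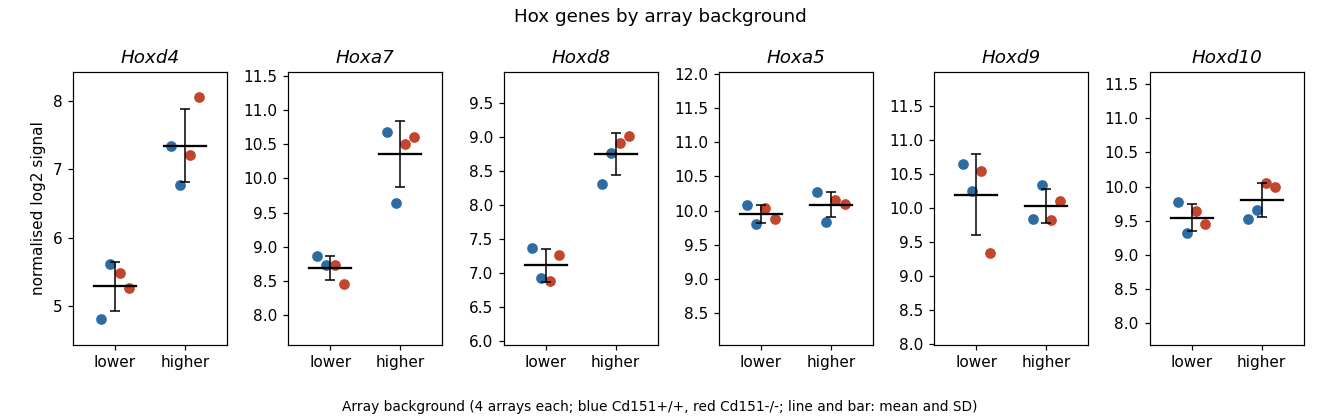
Normalised log2 signal of Hoxd4, Hoxa7 and Hoxd8 and of Hoxa5, Hoxd9 and Hoxd10 on the 4 arrays of lower and the 4 of higher background, blue for Cd151+/+ and red for Cd151-/-, with the mean and SD; each panel spans the same range. The sets are apart in the first 3 genes, by 2.06, 1.67 and 1.63, and overlap in the others.

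Other genes of the same clusters gave smaller values. Hoxa5 had a mean of 9.95 ± 0.13 (SD, n = 4 arrays) at lower and 10.09 ± 0.19 at higher background, and the limma difference of 0.14 had an adjusted p-value of 0.556. Hoxd9 had means of 10.20 ± 0.59 and 10.03 ± 0.25, and Hoxd10 of 9.55 ± 0.20 and 9.81 ± 0.25, with overlapping sets. Hoxd3, beside Hoxd4, had means of 5.66 ± 0.66 and 6.22 ± 0.22, which overlapped, and a difference of 0.56 (SE 0.25, adjusted limma p-value 0.127). Of the other genes past adjustment, the brightest Hoxa13 probe was dimmer at higher background, with a difference of -0.59 (SE 0.18, adjusted limma p-value 0.0432). Its other detected probe did not share this, with a difference of -0.0017 (adjusted limma p-value 0.997). Hoxb4, which acts in blood stem cells, was detected on 3 arrays of higher and 0 of lower background, and Hoxc8 on 0 and 2, so that each was not above background on a whole set and has no measured fold. The sign of the Hoxb4 estimate turned with 75th percentile scaling.

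Genes of several cell types differed between the sets as well, beside 13.2% of all probes higher and 10.7% lower after adjustment. Wt1, a podocyte and kidney progenitor gene, was 1.85 higher at higher background (adjusted limma p-value 0.00233). It was the only 1 of 4 tested podocyte markers to pass, and the median of the 4 was 0.14. In the mesangial, loop and distal tubule, and erythroid lists 0 genes passed. In the proximal tubule list 1 was higher, and in the leukocyte list 1 was lower. Of the collecting duct list, 7 genes on the array, Aqp2 and Scnn1g were 1.10 and 1.00 higher, and of the stroma and fibroblast list, 5 genes, Pdgfra and Dcn were 0.88 and 1.01 higher. The stromal genes Lum and Dpt and the collecting duct gene Atp6v0d2 were detected on no array. Among 7 endothelial genes Cdh5 and Tie1 were lower, with differences of -1.28 and -1.08, and Flt1 was 1.04 higher. Kdr was lower too, without a measured fold, since it was not above background on the arrays of higher background.

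The summed linear signal of the stromal list, of which Pdgfra was the brightest gene, was 747, 736, 771 and 759 on the arrays of higher background and 453, 442, 528 and 306 on the others. The sets were apart in this sum. The collecting duct list, of which Slc4a1 was the brightest gene, summed to 858, 1244, 782 and 1792 on the former and 871, 834, 557 and 521 on the latter, with overlap. The part of these cells, or of the background itself, in the Hoxa7, Hoxd8 and Hoxd4 values was not tested.

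Across the 8 arrays some Hox genes followed each other. The closest pairs among the 14 genes were Hoxb6 and Hoxc10 (Pearson's r 0.91), Hoxc6 and Hoxc9 (0.89) and Hoxa7 and Hoxd8 (0.89). These are descriptions over 8 arrays that share 2 sets of background and a normalisation.

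Hox proteins bind DNA with TALE homeodomain cofactors of the Pbx, Meis and Pknox families, and their clusters are kept open by Trithorax and closed by Polycomb complexes. To see whether these genes differed between genotypes, lists of them were taken from the same fit. Of 48 genes tested over the 5 lists, 0 passed Benjamini-Hochberg adjustment in limma, and 4 were lower and 2 higher at an unadjusted p-value under 0.05, beside 2.61% and 1.69% of all probes. Of the TALE cofactors, 7 of 9 were on the array and 6 were tested, with 1 lower and 0 higher at an unadjusted p-value under 0.05 and a median difference of -0.22. Pbx2 measured 9.61, 9.54, 9.30 and 9.58 in the controls and 8.90, 9.13, 9.22 and 8.65 in the mutants. All mutants were below all controls, with a difference of -0.54 (SE 0.21, unadjusted limma p-value 0.0269, exact permutation p-value 0.0286).

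Of the Trithorax and MLL genes, all 9 on the array were tested and 0 reached an unadjusted limma p-value of 0.05, with a median of -0.09. Of the Polycomb genes 13 were tested, with 2 lower, 0 higher and a median of -0.18. Pcgf2, a subunit of Polycomb repressive complex PRC1, measured 5.83, 5.88, 5.22 and 6.11 in the controls and 5.02, 5.64, 4.75 and 5.02 in the mutants, and it was detected on 3 control arrays and 1 mutant array. The values overlapped, and the difference was -0.65 (SE 0.27, unadjusted limma p-value 0.033). Cbx7, which reads the Polycomb mark within PRC1, measured 8.75, 8.58, 7.68 and 7.99 in the controls and 7.06, 7.01, 8.18 and 7.75 in the mutants, a partial overlap with a difference of -0.75 (SE 0.33, unadjusted limma p-value 0.0451).

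**Figure D5:**
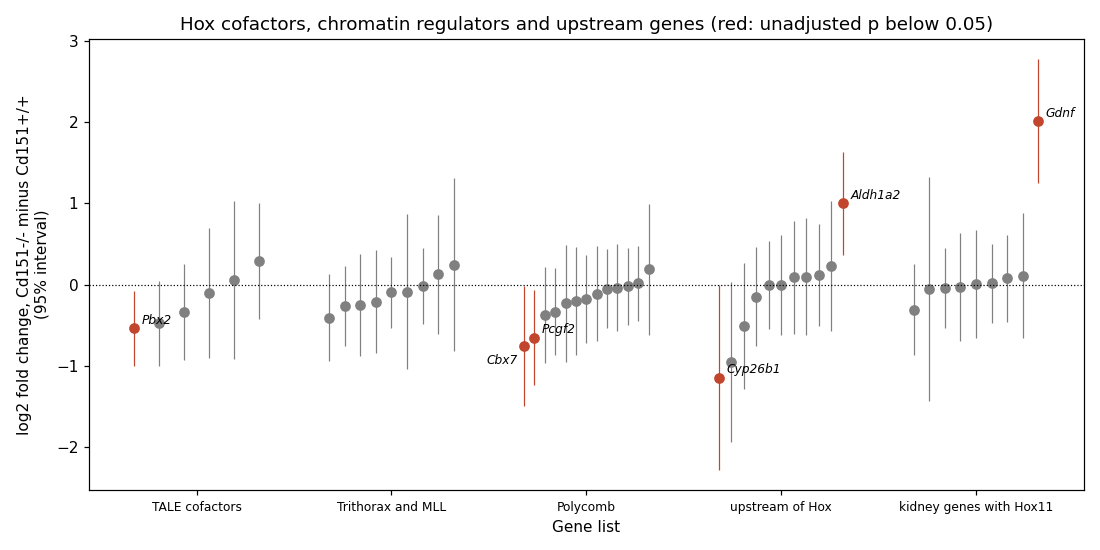
Difference of the mean log2 signal, Cd151-/- minus Cd151+/+, with its 95% limma interval (4 mice per genotype) for the tested genes of 5 lists that act with or upstream of Hox genes; red marks an unadjusted p-value under 0.05. The red genes are Pbx2, Cbx7, Pcgf2 and Cyp26b1 below 0 and Aldh1a2 and Gdnf above 0, and none passed adjustment over all probes.

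Upstream of the Hox clusters, retinoic acid is the classical inducer of their 3' genes. Of 21 listed genes, 11 were tested, with 1 higher, 1 lower and a median of -0.0046. Aldh1a2, which makes retinoic acid, measured 6.72, 7.47, 6.57 and 6.74 in the controls and 7.59, 7.40, 8.22 and 8.29 in the mutants. The mutants lay above the controls except for an overlap of control mouse 2 with mutant mouse 2, and the mean was 1.00 higher (SE 0.29, unadjusted limma p-value 0.00509, adjusted 0.918, exact permutation p-value 0.0571). Cyp26b1, which breaks retinoic acid down, measured 6.45, 7.52, 7.63 and 6.62 in the controls and 5.39, 5.46, 7.63 and 5.17 in the mutants. Mutant mice 1, 2 and 4 were below all controls and mutant mouse 3 was at their upper end. The difference was -1.14 (SE 0.51, unadjusted limma p-value 0.0484, exact permutation p-value 0.143).

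Of the kidney genes that work with the paralogues numbered 11, 9 of 13 on the array were tested, with 1 higher and 0 lower, and those detected on no array included Six2, Pax2 and Emx2. Gdnf, the ureteric bud growth factor, measured 7.37, 7.95, 7.15 and 6.21 in the controls and 9.01, 9.67, 9.05 and 8.98 in the mutants. The groups were apart, with a difference of 2.01 (SE 0.35, unadjusted limma p-value 0.000123, adjusted 0.205). The values of Hoxd11, the only detected paralogue numbered 11, were 5.73, 5.02, 5.20 and 5.33 in the controls and 5.15, 4.94, 6.62 and 5.90 in the mutants. Those overlapped, with a difference of 0.34 (SE 0.35) and detection on 2 arrays of each genotype. A link of Hoxd11 to Gdnf in these glomeruli was not tested.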

How the data were processed

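Glomerular RNA of 8 mice was hybridised to 1 array each. The authors isolated glomeruli with magnetic beads, amplified and biotin-labelled the RNA and read the arrays with a BeadArray Reader, with quality control in GenomeStudio. The authors deposited signal intensity for each probe, not normalised, and a detection p-value, in steps of 1 over 798. Their own analysis, by cubic spline and SAM, was not used here. Groups came from the sample labels. In R 4.3.3, limma 3.58.1 was used for background correction with neqc (background inferred from the detection p-values, offset 16, quantile normalisation) and for lmFit and eBayes with genotype alone, with Benjamini-Hochberg adjustment over the 14967 probes that any array detected at 0.05. Of several probes of a gene the brightest stands for it. Exact permutation tests used all 70 relabelings. Mouse values are given for Hox genes detected on all 8 arrays, and for Hox and partner genes with an unadjusted p-value under 0.05 or groups that do not overlap; those of Hoxd4 and Hoxd11 were added after their values were seen. The Hox genes and the lists were chosen with earlier results of these data known. Older array symbols were used for 7 listed genes, such as Rnf110 for Pcgf2. Alternatives were no background correction, cubic spline, 75th percentile scaling, an offset of 50, other detection filters, mouse number or array set as a block, trended variance, array weights, SAM and leaving out each mouse. The fit was tested on simulated data. Probe sequences were not used here. Results of some single genes, which are among the counts, are not reported here. The number of arrays and the signal over background limit the precision.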

Additional observations from a re-analysis of the deposited data

How the results depend on the processing

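In none of the alternatives fitted with limma did a Hox gene pass Benjamini-Hochberg adjustment between genotypes, and SAM called 0. The lowest adjusted p-value was 0.0885, with array weights. At an unadjusted p-value under 0.05 the numbers were 1 lower and 0 higher of 27 Hox genes. With array set as a block they were 3 (Hoxb5, Hoxb6 and Hoxd3) and 1 (Hoxc4), beside 6.08% and 5.21% of all probes. With array weights they were 4 and 4, beside 16.6% and 15.6%, and without a detection filter 1 was higher. Leaving out 1 mouse gave 1 to 3 lower, with 2 without Cd151+/+ mouse 3 and 3 without Cd151-/- mouse 3, beside 3.36% and 5.17% of all probes, and 0 to 1 higher. Hoxb5 stayed lower in all 19 alternatives, with a log2 difference of -0.93 to -0.58 and an unadjusted p-value of 0.00134 to 0.0490. The mouse number as a replicate block gave 1 lower and 0 higher Hox genes. Deviations from the genotype means correlated at -0.58, -0.40, -0.53 and -0.01 between mice with the same number. Each number joins an array of lower background with an array of higher background. The correlations therefore cannot tell whether the numbers pair the mice.

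With array weights Hoxa7 moved to 1.04 and Hoxd8 to 1.11 (unadjusted limma p-values 0.0431 and 0.0306, adjusted 0.144 and 0.123), and Hoxb6 to -0.79 and Hoxc10 to -0.78 (0.00692 and 0.0106, adjusted 0.0890 and 0.0930). The sign of Hoxa13 turned with array weights (-0.23) and that of Hoxc6 with cubic spline (0.018) and array weights (0.18). Leaving out 1 mouse gave -0.019 to 0.14 for Hoxa5, -0.25 to 0.49 for Hoxa7, -0.065 to 0.25 for Hoxa13, -0.032 to 0.15 for Hoxb7, -0.34 to 0.17 for Hoxc6, -0.23 to 0.040 for Hoxc9 and -0.15 to 0.55 for Hoxd8. With the sign kept, it gave -0.39 to -0.094 for Hoxa9, -0.30 to -0.17 for Hoxb2, -0.63 to -0.32 for Hoxb6, -0.58 to -0.21 for Hoxc10, -0.51 to -0.11 for Hoxd9 and 0.12 to 0.32 for Hoxd10. Partner genes at the unadjusted threshold numbered 4 lower and 2 higher, beside 2.61% and 1.69% of all probes. With 75th percentile scaling they numbered 2 and 2, beside 1.67% and 0.929%. With array set as a block they were 5 and 2, beside 6.08% and 5.21%. With array weights they were 14 and 5, beside 16.6% and 15.6%. Without 1 mouse 0 (control mouse 2 or mutant mouse 1, beside 1.57% and 1.48% of all probes) to 7 (without Cd151-/- mouse 3, beside 5.17%) were lower and 2 higher.

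Between array sets the 4 higher Hox genes became 2 when detection on all 4 arrays of a genotype was required, beside 14.2% of all probes. Without 1 mouse 4 to 5 were higher, beside 8.51% to 16% of all probes. The 2 lower genes became 1 with no background correction, cubic spline, an offset of 50 or array weights, beside 9.57% to 11.1% of all probes. Without 1 mouse 0 to 5 were lower. The count was 0 without Cd151+/+ mouse 1 or 4 or Cd151-/- mouse 1 or 2, beside 4.57% to 8.22%. It was 5 without Cd151-/- mouse 4, beside 15.7%. With 75th percentile scaling the lower genes became 11 of 27, beside 40.5% of all probes. The estimate of Hoxb4, which is not above background on a whole set, then turned to -0.26. Hoxa7 and Hoxd8 kept their call in all 16 alternatives and Hoxd4 in all 15, with adjusted p-values up to 0.0119, 0.00823 and 0.00960. Detected Hox genes numbered 27, with all 8 arrays required 14, and with all 4 of a genotype 17. The cause of these changes was not tested.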
